A study of Mus musculus with 6 samples.

Results

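Residual olfactory epithelium, the nasal epithelium from which the mature olfactory sensory neurons (OSNs) had been sorted away, was compared with brain across every probe set of a pair of Affymetrix mouse expression chips. The comparison used 4 of the 6 arrays of the series: residual epithelium and brain on chip A, with 22626 probe sets, and the same populations on chip B, with 22511. All mice were OMP-GFP animals, in which green fluorescent protein stands in place of the coding region of Omp, the olfactory marker protein made by mature olfactory and vomeronasal sensory neurons. The epithelium was dissociated and passed through fluorescence-activated cell sorting, and RNA of about 2500000 cells that lacked OMP-GFP positive neurons formed the residual sample. Brain was whole tissue with the olfactory bulbs left off, also from OMP-GFP mice, so both groups carry the replaced allele. The age, sex and number of the mice, whether 1 or both copies of Omp were replaced, and whether RNA was pooled over animals: not given in the sources used here. Either tissue had a lone array on each chip, so no difference has a replicate check and none carries a p-value. Residual epithelium was sorted cells and brain was tissue, so the preparation and the tissue cannot be told apart.

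The olfactory epithelium is a neuroepithelium that keeps making neurons throughout life. Horizontal and globose basal cells give rise to immature and then mature OSNs, sustentacular cells ensheath the neurons and carry detoxifying enzymes, and Bowman glands secrete the mucus in which odorants dissolve. With the mature neurons taken out, what stays is support, gland, basal, microvillar and immature neuronal cells, together with blood and connective tissue cells of the sample. Brain contributes central neurons, astrocytes, myelinating oligodendrocytes, vessels and choroid plexus.

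The labels were set against Omp and the markers of the populations. Omp had a signal of 249 in residual epithelium and 201 in brain, against 11057 in the sorted OSNs of the series, so its level in residual epithelium was close to that of brain. Cnga2, a subunit of the olfactory cyclic nucleotide-gated channel, had a signal of 588 in residual epithelium and 64 in brain and 10559.8 in OSNs. Actb, a cytoskeletal actin, had a signal of 14779 in residual epithelium and 16436 in brain. Defining markers of the gland, the support cell and the progenitor (Bpifa1, Cyp2g1, Neurog1) were above the chip median in residual epithelium and below it in brain. In sorted OSNs Bpifa1 stood at 3432, Cyp2g1 at 3822 and Neurog1 at 10.8. For central neurons, astrocytes and myelin (Slc17a7, Gad1, Slc1a2, Mog), the brain signal was the higher. Set against each other, residual epithelium and brain were therefore marked by their own genes, and mature OSN transcripts stood at a low level in residual epithelium.

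Signals are intensities on a linear scale that had been brought to a common level per array, with trimmed means between 499.604 and 499.83 on the 4 arrays. Low signals were raised to a floor, 70.6 on chip A and 79.9 on chip B, before the log2 ratio of residual epithelium over brain was taken within a chip. Folds are written "at least" where the lower signal lay at or under the floor. A probe set or gene was counted where at least 1 of its signals came up to the chip median, which was 222.15 for chip A and 243.6 for chip B, and it was called from a ratio of 2-fold. In bulk RNA, fewer cells of a type and less of an RNA per cell cannot be told apart. The ratio of 3′ to 5′ signal of the actin control, a sign of RNA quality, on chip A was 1.233 for residual epithelium and 1.234 for brain, and on chip B it was 1.153 and 1.248.

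On chip A, 2930 of 13819 counted probe sets (21.2%) were at least 2-fold higher in residual epithelium and 2858 (20.7%) in brain. For probe sets of chip B the counts were 2739 (20.1%) and 2731 (20.0%) of 13642. With each of 18193 genes represented by the brightest-ranking of its probe sets, 12917 genes were counted, of which 2902 (22.5%) were higher in residual epithelium and 2446 (18.9%) in brain, with a median log2 ratio of 0.12. A ratio of 4-fold or more was reached by 1099 genes (8.51%) toward residual epithelium and by 1101 (8.52%) toward brain. The sign of a gene counted through 1 array alone follows from the filter. Among the 9678 genes with both signals from the chip median, 1580 (16.3%) were higher in residual epithelium and 1313 (13.6%) in brain, with a median of 0.11. These shares are the background against which the gene lists below are to be read, and the count of list members with both signals from the median is given beside each list.

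**Figure D1:**
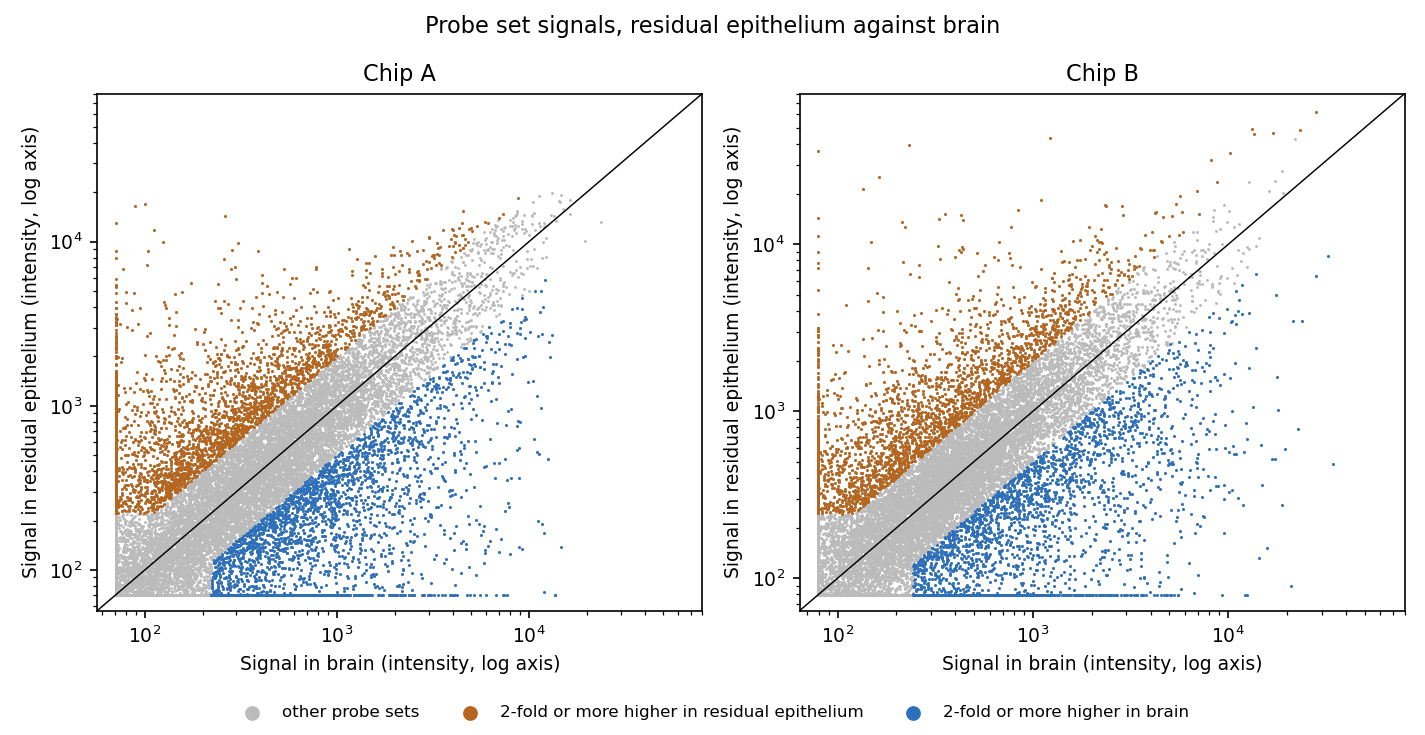
Probe set signals in residual epithelium (vertical axis) against brain (horizontal axis), both intensities on log axes, for chip A and chip B; points are probe sets, signals under the floor are drawn at the floor, and the diagonal marks equal signals. Probe sets at least 2-fold apart and counted are coloured, 2930 and 2858 on chip A and 2739 and 2731 on chip B, and they lie on both sides of the diagonal in near equal numbers.

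The scale between the arrays carries an uncertainty that bears on the balance of calls. Exactly 100 probe sets are present on both chips, and their log2 ratio averaged 0.04 on chip A and 0.46 on chip B, a mean difference of 0.42 with an SD of 0.34 between probe sets. The chip B ratio was the higher for 91 of the 100, and the ratios ran in parallel across these probe sets (r = 0.868). When the arrays of a chip were instead scaled to the same mean over these shared probe sets, the median of all genes moved by -0.26, and the share of calls that were higher in residual epithelium went from 54.3% to 42.7% for genes and from 50.1% to 26.7% on chip B. Small differences on chip B therefore have no settled direction, and each cell type or function list whose median changed sign under that scaling is named as such. Some families grouped by gene symbol changed sign as well, among them odorant receptors (0.24 to -0.22) and tubulins (0.1 to -0.46).

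**Figure D2:**
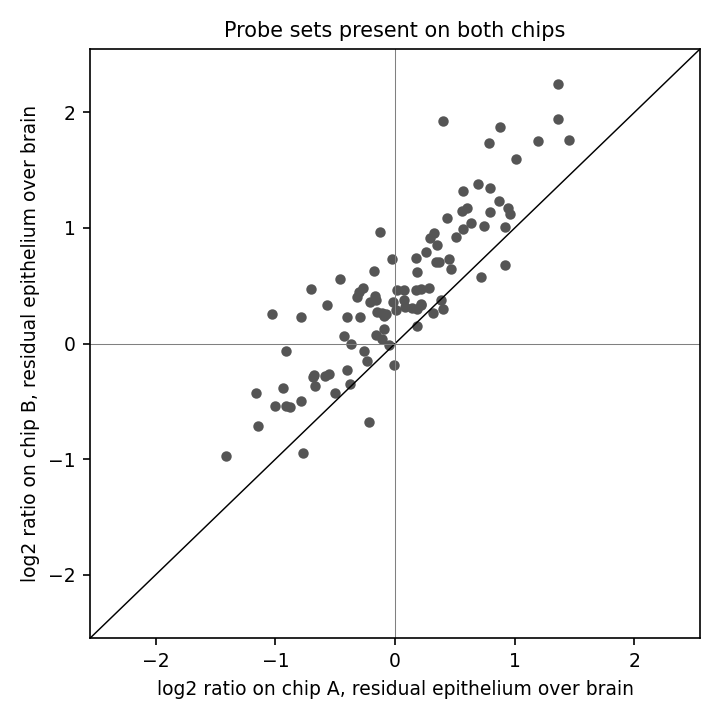
The log2 ratio of residual epithelium over brain on chip A (horizontal axis) and chip B (vertical axis) for the 100 probe sets that both chips carry; the diagonal marks equal ratios. Points lie above the diagonal for 91 probe sets, by 0.42 on average.

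The genes furthest apart came from few sources on either side. Toward residual epithelium, the 15 with the highest ratios held genes of neutrophils, of nasal secretion, of support cells and 1 transcription factor of neuronal progenitors. S100a8 and S100a9 encode the calcium-binding pair that fills the neutrophil cytosol. S100a8 had a signal of 16475 in residual epithelium and 88.7 in brain, a difference of 186-fold, and S100a9 was 168-fold higher. Camp, the antimicrobial cathelicidin, had 8745 in residual epithelium and 12.5 in brain (at least 124-fold). Cybb, a subunit of the phagocyte oxidase, was at least 112-fold higher, Lcn2, the iron-siderophore binder of neutrophil granules, at least 84.3-fold, and Chil3, a chitinase-like protein of myeloid cells, at least 75.6-fold.

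Secretory and epithelial genes made up most of the rest. Bpifa1, a secreted airway protein, had a signal of 12936 in residual epithelium and 34.6 in brain (at least 183-fold). Bpifb9b, of the same family, had 39508 in residual epithelium and 233 in brain (169-fold), and its probe sets had log2 ratios of 7.41 to 8.82. Lyz1, a lysozyme, was 79.8-fold higher, Cldn9, a tight-junction claudin, at least 96.1-fold, and Cbr2, a carbonyl reductase, 89.5-fold. The myeloid lysozyme Lyz2 had 8756 in residual epithelium and 388 in brain, and whether the Lyz1 probe sets also read Lyz2 was not tested. Insm1, a zinc finger factor of neuronal progenitors, had 11162 in residual epithelium and 61 in brain (at least 139.7-fold). Tex15, known from the germ line, had 5469 in residual epithelium and 58.9 in brain (at least 77.5-fold). The predicted genes 5430402E10Rik and Gm13648 were at least 179-fold and 158-fold higher. In sorted OSNs these leading genes had unlike signals. Gm13648 stood at 24892 and Bpifa1 at 3432, while Bpifb9b was at 381, Lyz1 at 116, S100a8 at 183 and Camp at 48.7.

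Toward brain, the leading genes were those of neurons, together with a choroid plexus and a glial gene. Hpcal4, a neuronal calcium sensor, had a signal of 27.8 in residual epithelium and 12407 in brain (at least 155-fold higher in brain). Rbfox1, a neuronal splicing factor, was at least 116-fold higher, and Pcp4, a calmodulin regulator of Purkinje and other neurons, at least 104-fold. Ttr, the thyroid hormone carrier made by choroid plexus, had 482 in residual epithelium and 34516 in brain (71.6-fold). Proteins of dense-core vesicles followed, with Pcsk1n at at least 84.7-fold, Chgb at at least 79-fold and Vgf at at least 60.5-fold. Scn2a, a sodium channel, was 82.5-fold higher and Nefl, the light neurofilament, 68.6-fold. The remaining leaders were Nap1l5 (at least 70.1-fold), Ube2ql1 (at least 69.6-fold), Cbln3 (66.7-fold), Sparcl1 (64-fold), Negr1 (at least 63.6-fold) and Zic1 (at least 60-fold).

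**Figure D3:**
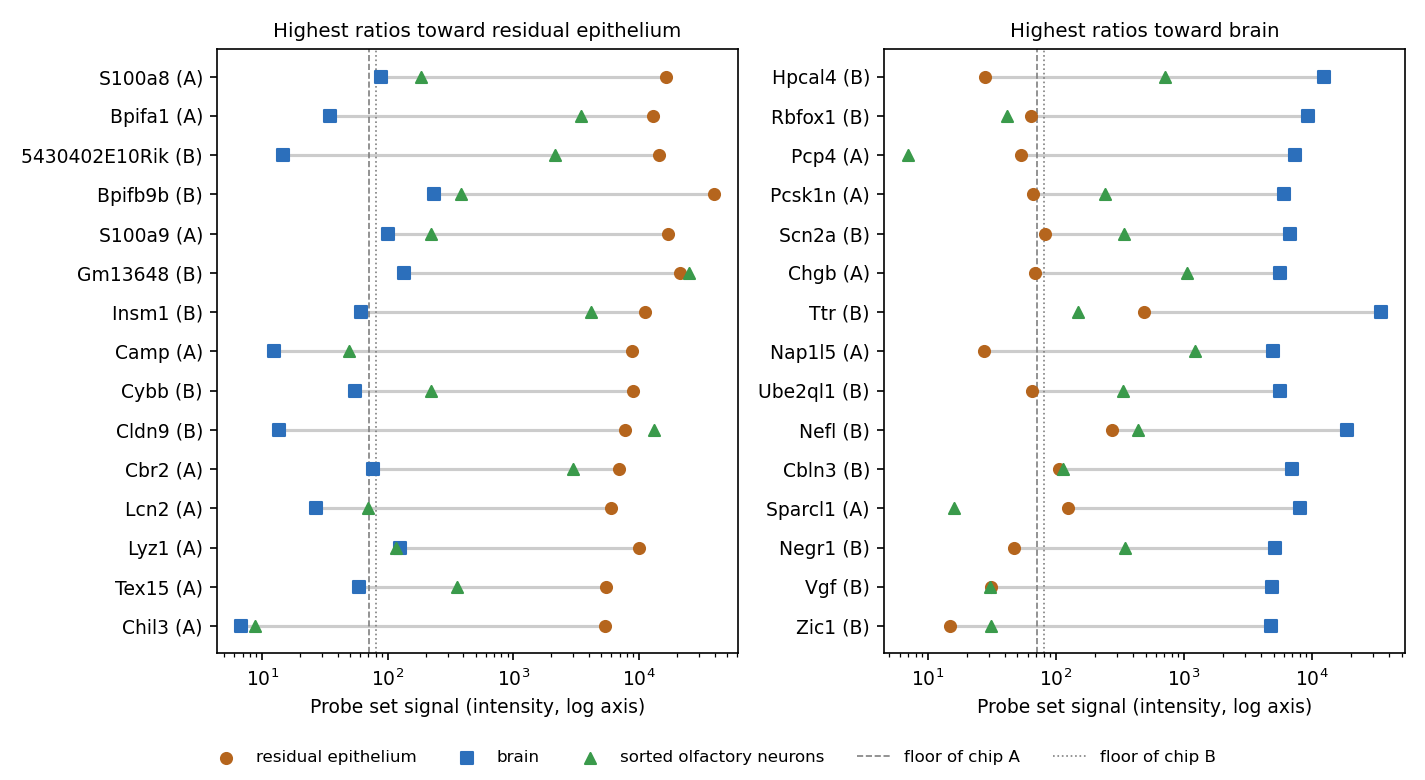
Probe set signals (intensity, log axis) of the 15 genes with the highest ratios toward residual epithelium (left) and toward brain (right), with the chip in parentheses; circles are residual epithelium, squares brain and triangles sorted olfactory neurons, and the dashed and dotted lines mark the floors. The lower of the paired signals lay near or under the floor for many of these genes, as for Bpifa1 at 34.6 in brain and Hpcal4 at 27.8 in residual epithelium, so their folds are lower bounds.

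The promoter windows of some of the genes that stood together are shown because the lists they belong to moved together. Windows are RefSeq sequence of GRCm38.p6, 250 bases before to 50 after the annotated start, read 5′ to 3′ on the gene's strand, in lower case with the motif match in capitals. Of the mouse genes in that table, 22862 had a single window and were searched on both strands. The TATA box was searched as TATAAA. For a PU.1-type site of ETS factors the letters were GAGGAAGT. The GATA motif was written as AGATAA. The cell cycle homology region, CHR, was taken as TTTGAA. The cyclic AMP response element, CRE, was given by the letters TGACGTCA. Also searched were the palindrome of EBF factors, part of the REST element as TTCAGCACC, and the CCAAT box. No motif contains another.
Bpifa1, TATA box, chr2:154142630-154142929, plus strand: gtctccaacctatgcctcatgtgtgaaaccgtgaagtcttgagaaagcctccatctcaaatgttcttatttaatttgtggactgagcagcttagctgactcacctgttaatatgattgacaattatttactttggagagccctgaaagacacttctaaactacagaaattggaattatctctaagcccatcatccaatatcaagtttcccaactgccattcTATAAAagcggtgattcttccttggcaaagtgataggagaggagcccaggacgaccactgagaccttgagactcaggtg
S100a8, PU.1, chr3:90668821-90669120, plus strand: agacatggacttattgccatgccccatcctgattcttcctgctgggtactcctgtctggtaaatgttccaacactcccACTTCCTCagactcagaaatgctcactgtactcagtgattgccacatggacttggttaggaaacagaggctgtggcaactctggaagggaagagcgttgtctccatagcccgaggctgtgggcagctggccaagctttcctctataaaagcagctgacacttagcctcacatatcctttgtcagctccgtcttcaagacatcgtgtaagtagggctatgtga
Mpo, PU.1, chr11:87793534-87793833, plus strand: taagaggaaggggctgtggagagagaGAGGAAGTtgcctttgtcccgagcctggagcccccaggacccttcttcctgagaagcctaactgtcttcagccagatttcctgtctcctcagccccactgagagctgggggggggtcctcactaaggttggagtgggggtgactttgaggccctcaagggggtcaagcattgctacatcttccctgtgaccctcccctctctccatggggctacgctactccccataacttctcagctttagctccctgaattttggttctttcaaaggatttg
Alas2, GATA, chrX:150547167-150547466, plus strand: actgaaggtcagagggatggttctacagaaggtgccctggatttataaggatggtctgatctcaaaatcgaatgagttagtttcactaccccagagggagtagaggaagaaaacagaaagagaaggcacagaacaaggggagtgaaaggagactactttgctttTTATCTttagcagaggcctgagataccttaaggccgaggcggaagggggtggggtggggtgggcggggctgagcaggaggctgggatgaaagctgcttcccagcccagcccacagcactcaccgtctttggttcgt
Ube2c, CHR, chr2:164769679-164769978, plus strand: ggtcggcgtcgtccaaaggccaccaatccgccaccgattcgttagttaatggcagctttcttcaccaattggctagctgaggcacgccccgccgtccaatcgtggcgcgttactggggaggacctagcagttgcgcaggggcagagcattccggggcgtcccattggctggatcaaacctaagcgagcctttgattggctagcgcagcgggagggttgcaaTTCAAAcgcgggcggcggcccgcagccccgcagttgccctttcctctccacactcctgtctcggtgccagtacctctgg
Cdca8, CHR, chr4:124936868-124937167, minus strand: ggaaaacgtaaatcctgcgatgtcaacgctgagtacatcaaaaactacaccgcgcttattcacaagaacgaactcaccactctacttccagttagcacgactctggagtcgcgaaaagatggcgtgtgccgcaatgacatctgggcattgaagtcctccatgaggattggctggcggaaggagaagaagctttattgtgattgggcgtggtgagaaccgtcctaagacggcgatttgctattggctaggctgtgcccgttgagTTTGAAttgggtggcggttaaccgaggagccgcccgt
Chgb, CRE, chr2:132781392-132781691, plus strand: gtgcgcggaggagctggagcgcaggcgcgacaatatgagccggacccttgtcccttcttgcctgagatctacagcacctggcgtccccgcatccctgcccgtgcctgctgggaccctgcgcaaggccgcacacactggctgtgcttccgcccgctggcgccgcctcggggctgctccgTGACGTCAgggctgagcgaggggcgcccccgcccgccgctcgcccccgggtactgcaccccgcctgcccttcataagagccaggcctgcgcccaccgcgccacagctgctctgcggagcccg

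The CHR letters stood in 28 of 50 windows of the cell cycle list (56.0%) against 18.5% of all windows. The PU.1 letters were in 7 of 31 windows of the neutrophil list (22.6%) against 3.32% of all. They were in 44 of 741 windows of genes at least 4-fold higher in residual epithelium (5.94%). That set holds neutrophil list genes such as S100a8 and Mpo, so it is no separate support. For genes at least 4-fold higher in brain it was 1 of 613 windows (0.163%), and for genes within 2-fold 2.75%. The 2 sets at least 4-fold apart differed in base composition too, with a median GC content of 58.0% and 62.0%. The GATA letters were in 8 of 20 windows of the erythroid list (40%) against 11.5% of all, but also in 9 of 20 windows of the Bowman gland list (45.0%). The CRE letters were in 5 of 26 windows of the neuropeptide list (19.2%) against 1.85%. The TATA letters were in 6 of 20 windows of the Bowman gland list (30.0%) against 14.8%. Their share was higher in the sustentacular (38.5%), horizontal basal cell (33.3%) and neutrophil (32.3%) lists. The EBF letters were in 0 of 12 windows of the olfactory transduction list and 0 of 4 of the olfactory transcription factor list, against 0.884% of all. They were in 1 of 9 windows of the globose basal cell list, 1 of 12 of the immature neuron list and 1 of 22 of the B lineage list. With so few windows, no EBF share of these lists can be set apart from that of all windows. The REST letters were in 3 of 27 windows of the synaptic vesicle list (11.1%) against 0.359%, and CCAAT in 34 of 50 of the cell cycle list (68.0%) against 38.2%. In the 8304 windows of counted genes, CHR stood at 11.8%, PU.1 at 2.87%, GATA at 6.18%, CRE at 3.16% and TATA at 7.68%. EBF, REST and CCAAT stood at 1.12%, 0.446% and 38.8% there. Median GC content was 61.0% in the windows of counted genes and 52.3% in all windows. A match describes the letters of a window and is no measure of binding.

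Many genes of support cells and glands were higher in residual epithelium, but most were counted through residual epithelium alone. For sustentacular cells, 23 of 27 listed genes had a probe set named for that gene alone, and 22 were counted, 16 higher in residual epithelium and 1 in brain, with a median log2 ratio of 2.55. Cbr2 had a signal of 6857 in residual epithelium and 76.6 in brain (89.5-fold). Cyp2f2, a cytochrome P450 of airway and nasal epithelium, had 7244 in residual epithelium and 103 in brain (70.4-fold). Cyp2g1, an olfactory-specific cytochrome P450, had 2657 in residual epithelium and 103 in brain (25.9-fold), and Sult1c1, a sulfotransferase, was at least 35.3-fold higher. These detoxifying enzymes were below the chip median in brain. Krt18 and Krt8, the keratins of simple epithelia, were 23.3-fold and 8.67-fold higher. The exception was Aldh1a1, a retinaldehyde dehydrogenase, which was 3.38-fold higher in brain (612 in residual epithelium and 2072 in brain). Just 7 of the 22 had both signals from the chip median, 2 of them higher in residual epithelium and 1 in brain. The median of these 7 was 0.01, so the list median rests on genes whose sign follows from the filter. Sorted OSNs also gave a Cyp2g1 signal, of 3822, and a Cbr2 signal of 2977.

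Bowman gland and nasal secretory genes showed a like pattern. Of 35 listed genes, 29 were on the arrays and 20 were counted, 19 of them higher in residual epithelium, with a median of 3.09. Besides the Bpi-fold genes and Lyz1, Obp1a, an odorant-binding protein, had 3633 in residual epithelium and 11 in brain (at least 51.5-fold). Muc5b, a gel-forming mucin, had 339 in residual epithelium and 94.5 in brain (3.59-fold), and Tff2, a trefoil peptide of mucus, was at least 3.15-fold higher. Aqp4, a water channel of gland and support cells that is also abundant in brain astrocytes, was 4.82-fold higher in brain (411 in residual epithelium and 1983 in brain). With both signals from the median there were 4 genes, 3 higher in residual epithelium and Aqp4 in brain.

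Genes of epithelial junctions and identity were more often higher in residual epithelium than in brain. Of 50 genes on the arrays, 43 were counted, 32 higher in residual epithelium and 2 in brain, with a median of 2.21, and of the 9 with both signals from the median 3 were higher in residual epithelium and 1 in brain. Cldn3 had a signal of 3232 in residual epithelium and 66.3 in brain (at least 45.8-fold). Cdh1, or E-cadherin, had 953 in residual epithelium and 64.7 in brain (at least 13.5-fold), and Epcam, an epithelial adhesion molecule, had 2960.0 in residual epithelium and 436 in brain (6.79-fold). The desmosomal plaque protein Dsp was at least 25-fold higher and Anxa1, an annexin of epithelium and neutrophils, 62.1-fold. Esrp1, the epithelial splicing regulator, had 1948 in residual epithelium and 6.60 in brain (at least 27.6-fold). Cldn10 and Evpl were the members higher in brain, by 2.01-fold and 2.44-fold.

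Basal cells gave a smaller signal. Of 16 horizontal basal cell genes on the arrays, 12 were counted, 8 higher in residual epithelium and 1 in brain, with a median of 1.68. Krt5, the keratin that defines this layer, had 563 in residual epithelium and 26.5 in brain (at least 7.97-fold). Trp63, the transcription factor that keeps these cells in reserve, had 393 in residual epithelium and 48.3 in brain (at least 5.57-fold), and Krt15 was at least 6.39-fold higher. Krt14, the partner of Krt5, was at least 5.55-fold higher, and its log2 ratio was -0.61 with a floor at percentile 10, where another of its probe sets represented it. Dst, a cytolinker that neurons also make, was 3.87-fold higher in brain. None of the 4 genes with both signals from the median was higher in residual epithelium and 1 was higher in brain, and the list's median was -1.18 under a filter at percentile 75 and -0.25 on chip B alone.

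Microvillar, tuft and ionocyte genes were higher on the epithelial side. Of 24 on the arrays, 18 were counted, 16 of them higher in residual epithelium and 0 in brain, with a median of 2.41, and 5 of the 7 with both signals from the median were higher. Trpm5, the cation channel of microvillar and tuft cells, had 432 in residual epithelium and 57.9 in brain (at least 6.12-fold). Ascl3, a factor of gland duct and microvillar precursors, had 1819.6 in residual epithelium and 352 in brain (5.17-fold). Foxi1, the ionocyte factor, had 636 in residual epithelium and 116 in brain (5.46-fold). Chat, the acetylcholine-synthesising enzyme that some microvillar cells share with central cholinergic neurons, had 609.8 in residual epithelium and 413 in brain and did not reach 2-fold. Alox5ap and Cd24a, which leukocytes share, were 16.3-fold and 31.3-fold higher.

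The neuronal lineage of the epithelium remained in the sample up to the mature stage. Of 17 globose basal cell and progenitor genes on the arrays, 16 were counted, 11 higher in residual epithelium and 1 in brain, with a median of 1.74, and of the 10 with both signals from the median 6 were higher and 1 lower. Neurog1, the proneural factor of the OSN lineage, had 1186 in residual epithelium and 4.60 in brain (at least 16.8-fold). Sox11, a factor of newborn neurons, had 43377 in residual epithelium and 1224 in brain (35.4-fold), with 7966 in sorted OSNs. Neurod1 acts both in OSN precursors and in cerebellar granule cells, and had 5353 in residual epithelium and 1871 in brain (2.86-fold). Neurod2, a factor of forebrain neurons, was the member higher in brain, with 454 in residual epithelium and 3628 in brain (7.99-fold). Sox4 was 4.25-fold higher by its representing probe set, but its probe sets ranged from -2.62 to 2.09 and so did not share a sign.

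Immature neuron genes were more often higher in residual epithelium. All 21 listed genes were counted, 12 higher in residual epithelium and 2 in brain, with a median of 1.46, and of the 18 with both signals from the median 9 were higher and 2 lower. Gng8, a G protein gamma subunit of immature OSNs, had 9811 in residual epithelium and 329 in brain (29.9-fold). Nhlh2 and Nhlh1, basic helix-loop-helix factors of immature neurons, were 24.4-fold and 7.45-fold higher. Cxcr4, a chemokine receptor of migrating precursors and of leukocytes, had 2568 in residual epithelium and 40.7 in brain (at least 36.4-fold). Gap43, a growth cone protein of immature OSNs and of many central neurons, had 2975 in residual epithelium and 2496 in brain, a log2 ratio of 0.25 that lies within the difference between chips. Stmn4, a tubulin-binding stathmin, was 3.69-fold higher in brain. Ablim1 was the other, with probe sets from -1.08 to 0.44 and a median over them of 0.07.

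Olfactory transcription factors kept high signals with the mature neurons gone. Of 19 on the arrays, 18 were counted, 14 higher in residual epithelium and 1 in brain, with a median of 2.55, and 8 of the 10 with both signals from the median were higher and 0 lower. The olfactory-type Ebf factors bind the promoters of many OSN genes. Ebf2 had 4858 in residual epithelium and 87.5 in brain (55.5-fold), against 5919 in sorted OSNs. Ebf1, which also directs B cell development, was 17.3-fold higher, and Ebf3 15.5-fold. Lhx2, required for OSN development, had 5578 in residual epithelium and 408 in brain (13.7-fold). Fezf1, a zinc finger factor of olfactory neurons and embryonic forebrain, had 10351 in residual epithelium and 148 in brain (70-fold), and Uncx, a homeodomain factor of the same lineage, had 2206 in residual epithelium and 138 in brain (15.9-fold). Otx2 was at least 7.19-fold higher. Rfx4 was the member higher in brain (3.81-fold), with its highest signal, 3431, in sorted OSNs.

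Transduction genes, the machinery of mature neurons, were divided between the tissues. Of 18 counted, 7 were higher in residual epithelium and 3 in brain, with a median of 0.48, and of the 13 with both signals from the median 3 were higher and 3 lower, with a median of -0.23. Scaled on the shared probe sets, the list gave 4 higher and 4 lower of 17 counted. Stoml3, a stomatin of OSN cilia, had 1329 in residual epithelium and 194 in brain (6.85-fold) against 57983 in OSNs. S100a5 had 437 in residual epithelium and 117 in brain (3.73-fold) against 19449.7. Gnal encodes the olfactory G protein alpha subunit, which striatal neurons also use, and was 2.34-fold higher in brain (1187 in residual epithelium and 2778 in brain). Reep1, of endoplasmic reticulum tubules, and Cnih2, an auxiliary subunit of AMPA receptors, were 8.91-fold and 5.29-fold higher in brain. Odorant receptors gave little signal. Only 7 of 39 on the arrays were counted, 0 higher in residual epithelium and 2 in brain, and the highest ratio was that of Olfr315, 254 in residual epithelium and 145 in brain.

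Vomeronasal and cilia genes differed little or were mixed. Of 8 vomeronasal and necklace neuron genes, all counted, 2 were higher in residual epithelium and 0 in brain, 1 of them among the 7 with both signals from the median, with a median of 0.24 that became -0.02 when scaled on the shared probe sets. Ano1, a chloride channel of glands and supporting cells, had 728 in residual epithelium and 43.8 in brain (at least 9.11-fold), and Trpc2, the channel of vomeronasal transduction, had 803 in residual epithelium and 341 in brain (2.35-fold). Of 50 motile cilia genes on the arrays, 26 were counted, 11 higher in residual epithelium and 4 in brain, with a median of 0.67, and of the 14 with both signals from the median 7 were higher and 1 lower. Enkur had 700.2 in residual epithelium and 32.7 in brain (at least 8.76-fold) with 8723 in OSNs, and Rfx3, a regulator of ciliogenesis, was 5.99-fold higher. The defining markers Foxj1, Dnah5 and Tekt1 did not reach the chip median in either tissue, with residual signals of 187, 118 and 144.

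**Figure D4:**
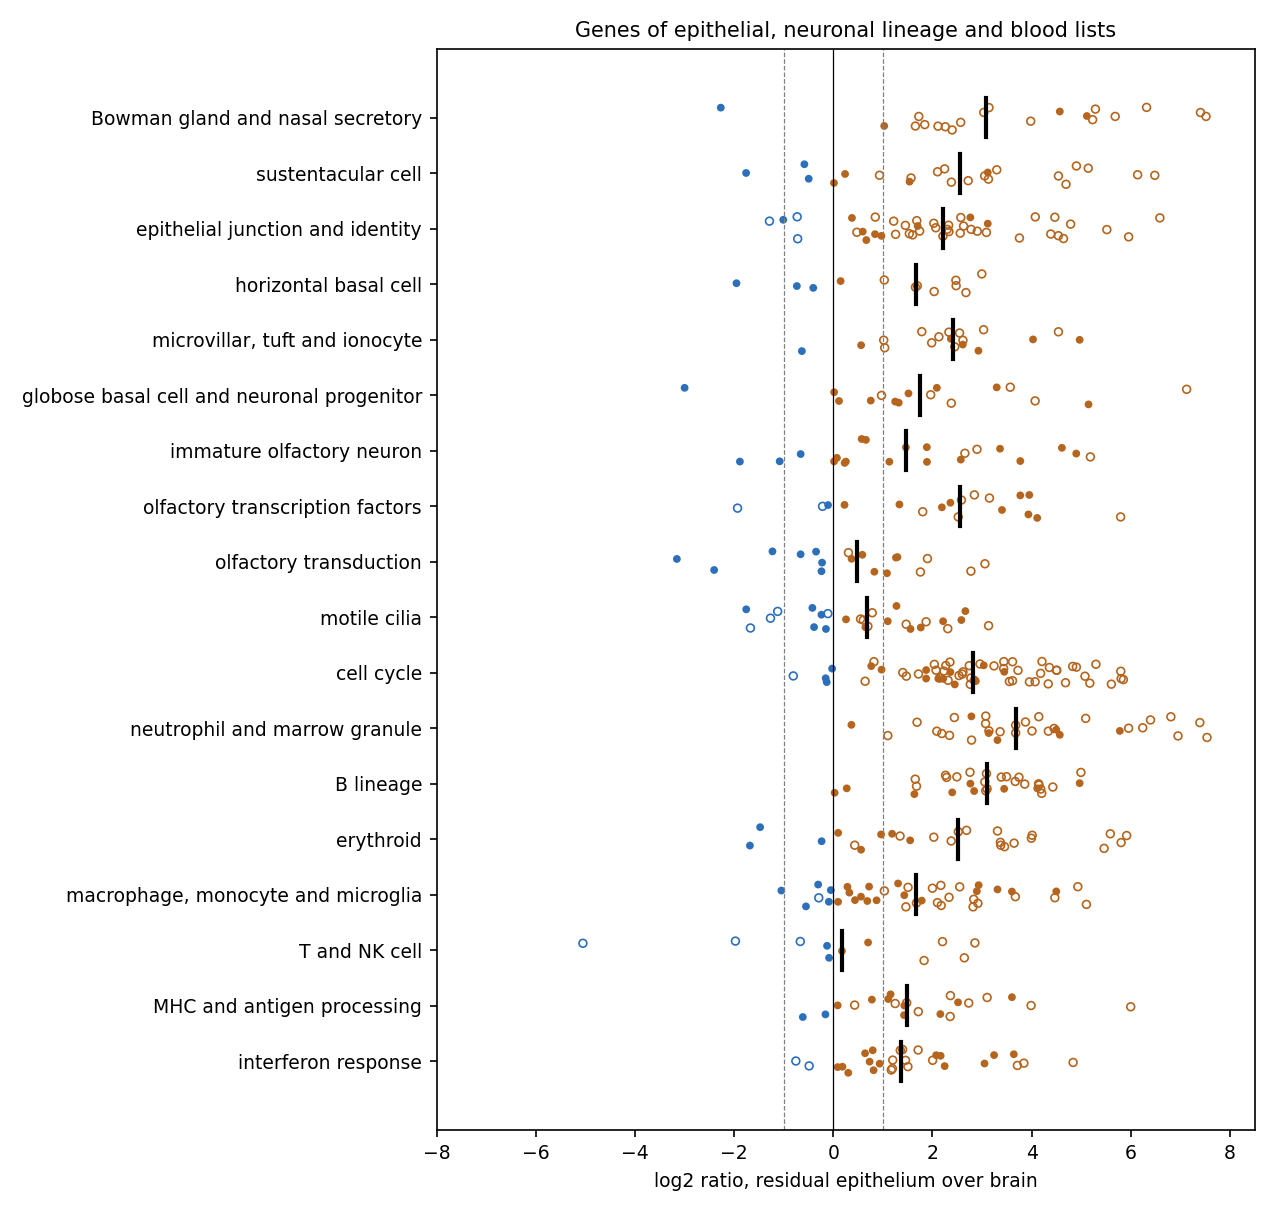
The log2 ratio of residual epithelium over brain for counted genes of epithelial, neuronal lineage and blood lists; each point is a gene, filled where both signals reached the chip median and open where 1 did, and the black bar is the median of the list. Dashed lines mark 2-fold; the neutrophil list has a median of 3.68 and T and NK cells of 0.17.

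Many blood cell genes were higher in residual epithelium, in particular those of marrow-type granulocytes and B lineage. Of 35 neutrophil and marrow granule genes on the arrays, 33 were counted, 32 higher in residual epithelium and 0 in brain, with a median of 3.68, and 6 of the 7 with both signals from the median were higher. In sorted OSNs 11 of the 35 reached the chip median, in residual epithelium 33 and in brain 7. Mpo, a granule enzyme made by marrow precursors of neutrophils, had 2938 in residual epithelium and 183 in brain (16.1-fold). Hp, the haemoglobin-binding protein of neutrophil granules and liver, was at least 20.2-fold higher. Lyz2, the lysozyme of myeloid cells, had 8756 in residual epithelium and 388 in brain (22.6-fold). The lowest ratios were those of Itgb2l, with 495 in residual epithelium and 384 in brain, and Ms4a3 (2.14-fold).

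Of 32 B lineage genes on the arrays, 30 were counted, 28 higher in residual epithelium and 0 in brain, with a median of 3.09, and 7 of the 9 with both signals from the median were higher. Vpreb1, a part of the surrogate light chain of B cell precursors, had 1299.9 in residual epithelium and 36 in brain (at least 18.4-fold). Cd79a and Cd79b, the signalling chains of the B cell receptor, were 17.7-fold and at least 21.5-fold higher. Ikzf1, a lymphoid transcription factor, had 4576 in residual epithelium and 144 in brain (31.9-fold). Pax5 had 676 in residual epithelium and 560.4 in brain, less than 2-fold apart.

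Erythroid genes followed, with 25 of 27 counted, 18 higher in residual epithelium and 2 in brain, and a median of 2.52. The list includes the proliferation gene Mki67. Alas2, the haem-synthesis enzyme of red cell precursors, had 3393 in residual epithelium and 31.1 in brain (at least 48.1-fold), and Slc4a1, the red cell anion exchanger, had 4264 in residual epithelium and 43.8 in brain (at least 60.4-fold). Klf1, the erythroid factor, was 6.44-fold higher, and Car1, a red cell carbonic anhydrase, at least 10.4-fold. Ank1 and Sptb, membrane skeleton genes that neurons also use, were 3.21-fold and 2.78-fold higher in brain. Of the 8 genes with both signals from the median, 2 were higher and 2 lower, with a median of 0.33. The other counted members were counted through residual epithelium alone. On chip B alone the median of the list was -0.36.

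Macrophage, monocyte and microglia genes were mostly higher in residual epithelium. Of 39 counted, 25 were higher in residual epithelium and 1 in brain, with a median of 1.68, and of the 21 with both signals from the median 8 were higher and 1 lower. Ptprc, the pan-leukocyte phosphatase CD45, had 3930.4 in residual epithelium and 129 in brain (30.5-fold), and Cd52 had 3169 in residual epithelium and 92.1 in brain (34.4-fold). Fcer1g, a signalling chain of Fc receptors, and Cd68, a lysosomal macrophage protein, were 7.44-fold and 2.76-fold higher. Csf1r, the receptor for the macrophage growth factor, had 4582 in residual epithelium and 2503 in brain, a ratio under 2-fold. Of 2 genes by which brain microglia are known, P2ry12 had 519 in residual epithelium and 760.4 in brain, under 2-fold, and Tmem119, the member higher in brain, had 279.5 in residual epithelium and 578 in brain (2.07-fold).

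T and NK cell genes were sparse. Of 32 on the arrays, 11 were counted, 4 higher in residual epithelium and 2 in brain, with a median of 0.17 that became -0.17 when scaled on the shared probe sets, and none of the 4 with both signals from the median reached 2-fold. Cd3e and Cd3d, parts of the T cell receptor complex, did not reach the chip median, with residual signals of 54.3 and 146. Thy1, which mature neurons and T cells of mice both carry, was 33.1-fold higher in brain (173 in residual epithelium and 5734 in brain). Among platelet, mast cell and eosinophil genes 12 of 26 were counted, 4 higher in residual epithelium and 1 in brain, with a median of 0.43 that became -0.08 under the shared scaling, and 0 of the 3 with both signals from the median reached 2-fold. Prg2, the eosinophil major basic protein, had 1079.7 in residual epithelium and 11.6 in brain (at least 15.3-fold), and Mcpt8, a basophil protease, was at least 5.39-fold higher. Pf4, a platelet chemokine, had 289 in residual epithelium and 172 in brain.

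Genes of antigen presentation and of the interferon response were higher with the leukocyte genes. Of 21 counted MHC and antigen processing genes, 16 were higher in residual epithelium and 0 in brain, with a median of 1.48, and 7 of the 11 with both signals from the median were higher. H2-Aa, a class II chain, had 13628 in residual epithelium and 213 in brain (63.9-fold), Cd74, the invariant chain, 4614 in residual epithelium and 379.8 in brain (12.1-fold). H2-K1 and B2m, of class I, were 4.47-fold and 2.69-fold higher. Of 28 counted interferon response genes, 18 were higher and 0 lower, with a median of 1.37, and 6 of the 14 with both signals from the median were higher. Ifitm6 had 2017 in residual epithelium and 58.1 in brain (at least 28.6-fold) and Isg20, an exonuclease, was 14.4-fold higher. Irf7, a driver of interferon production, was 2.25-fold higher, and Stat2, which carries the interferon signal, had a log2 ratio of -0.76, within 2-fold. Of 14 counted complement and acute phase genes, 9 were higher and 1 lower, the latter being Clu, the clusterin of astrocytes and other cells (3.96-fold higher in brain). Among the 5 of these with both signals from the median, 2 were higher and 1 lower, and their median of -0.63 had the opposite sign to the 1.29 of all counted. The part of leukocyte RNA in these lists was not tested.

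Genes of dividing cells were mostly higher in residual epithelium. Of 61 cell cycle genes on the arrays, 60 were counted, 52 higher in residual epithelium and 0 in brain, with a median of 2.81, and 9 of the 14 with both signals from the median were higher, with a median of 2.0. Mki67, the proliferation antigen, had 3947 in residual epithelium and 11.5 in brain (at least 55.9-fold), and Top2a, the topoisomerase of replicating cells, had 2775 in residual epithelium and 62 in brain (at least 39.3-fold). Ube2c, the ubiquitin-conjugating enzyme of mitotic exit, and Cdca8, a subunit of the chromosomal passenger complex, were at least 55.6-fold and 57.7-fold higher. In sorted OSNs the same genes stood at 73, 189.6, 126 and 759. Tpx2, Cdc45 and Anln were the lowest members, with log2 ratios of -0.15, -0.81 and -0.13, but probe sets of Tpx2 ranged from -0.15 to 3.28 and those of Cdc45 from -0.81 to 2.20. The epithelial progenitors and the marrow-type blood cells described above were higher in the same array, and their shares in the cell cycle signal were not tested. Ube2c and Cdca8 are the genes whose windows with the CHR letters are printed above.

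Connective tissue and vessels were not a mark of residual epithelium. Of 31 counted collagen and matrix genes, 7 were higher in residual epithelium and 7 in brain, with a median of -0.06, and of the 16 with both signals from the median 3 and 2 were. Col1a1, of fibrillar collagen, had 746 in residual epithelium and 33.2 in brain (at least 10.6-fold), and Dcn, a matrix proteoglycan, was 2.25-fold higher. Sparc, a matrix protein that brain glia and vessels make, was 7.90-fold higher in brain. Of 29 bone and cartilage genes on the arrays 10 were counted, 3 higher in residual epithelium and 2 in brain, with a median of 0.05 that became -0.76 under the shared scaling, and 1 of the 3 with both signals from the median was higher in residual epithelium. The defining genes Col2a1 and Ibsp were not counted (126 and 26.1 in residual epithelium), and Mmp13, a collagenase, had 279.6 in residual epithelium and 1.70 in brain (at least 3.96-fold). Of 7 counted muscle genes, 0 were higher in residual epithelium and 2 in brain, and none of the 3 with both signals from the median reached 2-fold.

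Endothelial genes were higher in brain, with 2 of 24 counted genes higher in residual epithelium and 17 in brain, and a median of -1.58, and with 1 and 3 of the 8 that had both signals from the median. The members that led were those of the blood-brain barrier. Slco1c1, a thyroid hormone transporter of brain vessels, had 68.2 in residual epithelium and 1103 in brain (at least 15.6-fold), and Cldn5, the endothelial claudin, 107 in residual epithelium and 917 in brain (8.55-fold). The general endothelial genes Pecam1 and Cdh5 did not reach the chip median in either tissue, and Kdr had 217 in residual epithelium and 261 in brain. Rgs5, a pericyte regulator of G protein signalling, was 3.18-fold higher in residual epithelium, with 1361 in OSNs. Of 13 counted ensheathing and Schwann glia genes, 1 was higher in residual epithelium and 10 in brain, with a median of -2.32, and 4 of the 6 with both signals from the median were higher in brain. The glia genes S100b and Fabp7 had residual signals of 48.8 and 89.6, which leaves those markers of the olfactory nerve's ensheathing glia below the chip median.

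On the brain side the machinery of synapses was higher in most of its measured members. Of 45 synaptic vesicle and release genes on the arrays, 44 were counted, 38 of them higher in brain and 0 in residual epithelium, with a median of -2.62. The list was measured on both sides, since 38 of the 44 had both signals from the chip median and 32 of these were higher in brain. Snap25, of the vesicle fusion complex, had 632 in residual epithelium and 10564 in brain (16.7-fold). Syp, a vesicle membrane protein, was 12.7-fold higher, Syt1, the calcium sensor of release, 6.88-fold, and Dnm1, the dynamin of vesicle recycling, 22.3-fold. Sorted OSNs, which are neurons too, had 5338 for Snap25 and 22027 for Syt1. Stx1a and Pclo were near equality, with log2 ratios of -0.36 and -0.12, and Cadps2 had 0.20.

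Receptors and postsynaptic proteins were higher in brain as well. All 19 counted glutamate receptor genes were higher in brain, with a median of -3.06, but only 4 had both signals from the median. Gria2, an AMPA receptor subunit, had 83.5 in residual epithelium and 3098 in brain (37.1-fold), and Gria1 and Grm5 were at least 26.8-fold and at least 29.7-fold higher. Of 16 counted GABA and glycine receptor genes, 14 were higher in brain and 0 in residual epithelium, with a median of -3.17, and 3 of the 5 with both signals were higher in brain. Gabra6, the receptor subunit of cerebellar granule cells, had 32.5 in residual epithelium and 2976 in brain (at least 42.2-fold). Of 35 counted postsynaptic genes, 30 were higher in brain and 0 in residual epithelium, with a median of -2.40, and 12 of the 17 with both signals were higher in brain. Dlg4, the scaffold PSD-95, was 4.02-fold higher and Homer1 4.88-fold. Kalrn had a log2 ratio of 0.87 by its representing probe set while its probe sets ranged from -4.80 to 0.87.

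Ion channels of central neurons were also higher in brain. Of 22 counted sodium and calcium channel genes, 16 were higher in brain and 1 in residual epithelium, with a median of -2.37, and 6 of the 11 with both signals from the median were higher in brain. Scn1a and Scn8a, sodium channels of central neurons, were at least 20.1-fold and at least 25.2-fold higher. The exception was Scn9a, a sodium channel of sensory neurons, with 3388 in residual epithelium and 209.6 in brain (16.2-fold higher in residual epithelium) and 9139.6 in sorted OSNs. Of 56 counted potassium channel genes, 39 were higher in brain and 7 in residual epithelium, and of the 24 with both signals from the median 14 and 1 were. Kcna1, an axonal channel, was 51.2-fold higher in brain by its representing probe set, with a range of -5.68 to 0.47 over its probe sets, and Kcnh8 was 12.3-fold higher in residual epithelium.

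Genes that name central neuron types were higher in brain. Of 27 counted excitatory neuron genes, 26 were higher in brain and 1 in residual epithelium, with a median of -3.57, and 13 of the 14 with both signals from the median were higher in brain. Slc17a7, the vesicular glutamate transporter of cortex and cerebellum, had 358 in residual epithelium and 8863 in brain (24.8-fold). Bcl11b, a zinc finger factor of deep-layer cortical neurons and T cells, was the exception, with 17019 in residual epithelium and 2368 in brain (7.19-fold higher in residual epithelium) and 7352 in sorted OSNs. Of 20 counted inhibitory neuron genes, 17 were higher in brain and 1 in residual epithelium, with a median of -3.15, and of the 8 with both signals from the median 5 were higher in brain and 1 in residual epithelium. Gad1, which makes GABA, had 19.2 in residual epithelium and 3958 in brain (at least 56.1-fold), and Pvalb, a calcium buffer of fast interneurons and Purkinje cells, 93.2 in residual epithelium and 5289 in brain (56.7-fold). Calb2, calretinin, did not reach 2-fold, with 2968 in residual epithelium and 2401 in brain and 6921 in OSNs.

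Neuropeptide and hormone genes were higher in brain for 25 of 31 counted and in residual epithelium for 1, with a median of -2.19, and 6 of the 11 with both signals from the median were higher in brain. Chgb, a granin of dense-core vesicles, had 68.6 in residual epithelium and 5579 in brain, and Cck, cholecystokinin, 3.0 in residual epithelium and 2197 in brain (at least 31.1-fold). Pmch, melanin-concentrating hormone of the hypothalamus, was 18-fold higher. Grp, gastrin-releasing peptide, went the other way, with 2184 in residual epithelium and 206 in brain (10.6-fold) and 93.7 in OSNs. Among 19 counted monoamine and cholinergic genes, 10 were higher in brain and 0 in residual epithelium, with a median of -1.40, and 3 of the 12 with both signals from the median were higher in brain. Th, the enzyme that begins catecholamine synthesis, had 101 in residual epithelium and 362 in brain (3.57-fold), and Htr2c, a serotonin receptor of choroid plexus and neurons, was 22.2-fold higher.

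The cytoskeleton of neurons was divided by isoform. Of 36 counted genes, 19 were higher in brain and 4 in residual epithelium, with a median of -1.29, and of the 29 with both signals from the median 13 were higher in brain and 3 in residual epithelium. Nefl had 274 in residual epithelium and 18777 in brain, and Nefm 24 in residual epithelium and 2469 in brain (at least 35-fold). Mapt, the axonal protein tau, was 14.6-fold higher in brain. Tubulins took both directions. Tubb4a, of myelinating cells and mature neurons, had 256 in residual epithelium and 7749.5 in brain (30.2-fold higher in brain) and Tubb2a was 4.11-fold higher in brain. Tubb2b, a tubulin of young neurons, had 3233 in residual epithelium and 364 in brain (8.87-fold higher in residual epithelium), and Tubb3, the tubulin of neurons at all stages, was 2.19-fold higher there.

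Glial genes were higher in brain with few exceptions. Of 43 counted astrocyte genes, 40 were higher in brain and 0 in residual epithelium, with a median of -3.22, and 20 of the 23 with both signals from the median were higher in brain. Slc1a2, the main glutamate transporter of astrocytes, had 780.5 in residual epithelium and 22834 in brain (29.3-fold). Mt3 and Sparcl1 were at least 58.5-fold and 64-fold higher, and Gfap, the astrocyte filament, 7.42-fold. Id3, Id4 and Mt2, which many cells make, were within 2-fold. Of 37 counted myelin and oligodendrocyte genes, 29 were higher in brain and 1 in residual epithelium, with a median of -2.23, and 16 of the 24 with both signals were higher in brain. Mog, of the outer myelin surface, had 25.6 in residual epithelium and 678 in brain (at least 9.60-fold). Mbp, myelin basic protein, had 198 in residual epithelium and 11202 in brain (56.5-fold), and its probe sets ranged from -7.60 to 0.90. The exception was Olig2, the oligodendrocyte lineage factor, with 1845 in residual epithelium and 281 in brain (6.56-fold higher in residual epithelium) and 942 in sorted OSNs.

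Genes of brain regions were more often higher in brain than in residual epithelium, and which regions the tissue held was not tested. Of 25 counted cerebellar genes, 20 were higher in brain and 2 in residual epithelium, with a median of -2.94. Of the 6 with both signals from the median 2 were higher in brain and 1 in residual epithelium, with a median of -0.17. Pcp2, of Purkinje cells, had 18.2 in residual epithelium and 3035 in brain (at least 43-fold), Zic1, of granule cells, 14.8 in residual epithelium and 4794 in brain. The members higher in residual epithelium, Uncx and Neurod1, are factors of the olfactory lineage as well. Of 28 counted forebrain genes, 15 were higher in brain and 5 in residual epithelium, with a median of -1.33. Of the 14 with both signals from the median 5 and 2 were, with a median of -0.11. Ppp1r1b, the striatal phosphatase inhibitor DARPP-32, had 40 in residual epithelium and 703 in brain (at least 9.96-fold), and Pde10a, a striatal phosphodiesterase, was at least 33.7-fold higher. Toward residual epithelium the list was led by Fezf1 and Lhx2, again of the olfactory lineage, and by Dsp, which hippocampal granule cells share with epithelia. Of 15 counted choroid plexus and ependyma genes, 5 were higher in brain and 3 in residual epithelium, with a median of -0.58, and of the 9 with both signals from the median 3 and 1 were. Scaled on the shared probe sets, 8 were higher in brain and 2 in residual epithelium. Kl, or klotho, was at least 4.87-fold higher in brain, and Aqp1, a water channel of choroid plexus and red cells, had 2054 in residual epithelium and 151 in brain (13.6-fold higher in residual epithelium). Of 23 hindbrain and caudal genes on the arrays 5 were counted, 2 of them higher in brain and neither with both signals from the median.

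**Figure D5:**
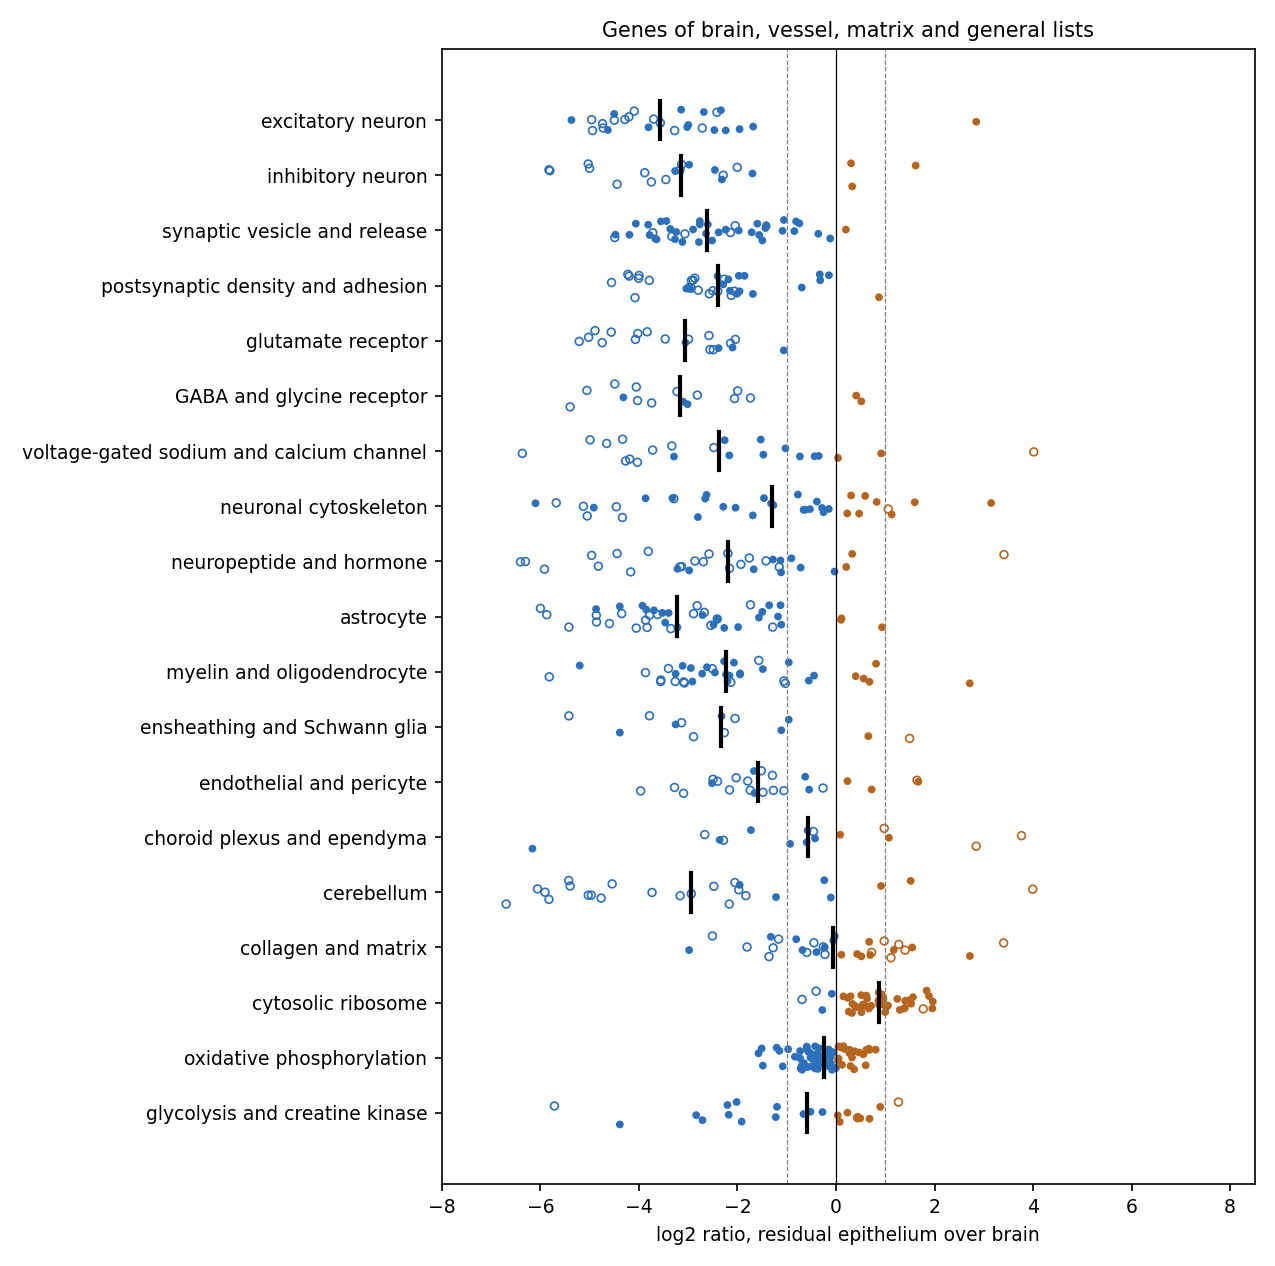
The log2 ratio of residual epithelium over brain for counted genes of brain, vessel, matrix and general lists; each point is a gene, filled where both signals reached the chip median and open where 1 did, and the black bar is the median of the list. Dashed lines mark 2-fold; synaptic vesicle genes have a median of -2.62 and cytosolic ribosome genes of 0.87.

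Splicing and RNA-binding genes differed between the tissues in part of their members. Of 22 counted neural splicing genes, 9 were higher in brain and 2 in residual epithelium, with a median of -0.37, and of the 17 with both signals from the median 4 and 2 were. The median of those 17 was -0.16. Rbfox3, the antigen NeuN, had 517 in residual epithelium and 16687 in brain (32.3-fold), and Celf4 was 25.8-fold higher. Msi1 and Elavl4, the former of stem cells and the latter of young neurons, were the members higher in residual epithelium, by 3.01-fold and 2.89-fold. Of 18 counted epithelial and general splicing genes, 9 were higher in residual epithelium and 0 in brain, with a median of 0.93, and 6 of the 15 with both signals were higher. Mbnl3 was 26.4-fold higher and Ptbp3, a polypyrimidine tract-binding protein of blood and other cells, 6.03-fold. Both had a higher signal in sorted OSNs than in residual epithelium, Mbnl3 with 6111 against 2507 and Ptbp3 with 3866 against 2984.

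Immediate early and stress genes were divided between the tissues. Of 45 counted, 24 were higher in residual epithelium and 8 in brain, with a median of 1.02, and of the 33 with both signals from the median 15 were higher and 5 lower. Fos had 9292 in residual epithelium and 1959 in brain (4.74-fold). Socs3, the brake on cytokine signalling, had 1859 in residual epithelium and 74.8 in brain (24.9-fold), and Zfp36, which destabilises cytokine messages, was 13-fold higher. Atf3 and Gadd45a, genes of cell stress, were 4.59-fold and 8.27-fold higher. Among the members higher in brain, Arc had 27.7 in residual epithelium and 1296 in brain (at least 18.4-fold) and Nr4a3 was 17-fold higher. Of the Egr factors, Egr1 was under 2-fold (3963 in residual epithelium and 5123 in brain) and Egr2 was 2.82-fold higher in residual epithelium (346 in residual epithelium and 123 in brain). Residual cells had been sorted and brain had not, and the part of the preparation in this list cannot be told apart from that of the tissue.

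Enzymes of drug and odorant metabolism divided by isoform. Of 46 counted genes, 22 were higher in residual epithelium and 8 in brain, with a median of 0.81, and of the 21 with both signals from the median 5 were higher and 4 lower, with a median of 0.0. Beside Cyp2f2, Cyp2g1 and Sult1c1, Gstm2 and Gsta3, glutathione transferases, were 6.59-fold and at least 4.29-fold higher in residual epithelium. Gstm5 and Gstt1 of the same family were 2.52-fold and 2.45-fold higher in brain, and Gstm1 had 1699 in residual epithelium and 3017 in brain. Cyp46a1, the brain enzyme that hydroxylates cholesterol, had 128 in residual epithelium and 2438 in brain (19.1-fold higher in brain).

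Housekeeping sets had medians within 2-fold, though that of glycolysis genes reached -1.12 with the median over the probe sets of a gene. Of 44 counted cytosolic ribosome genes, 15 were higher in residual epithelium and 0 in brain, with a median of 0.87, and 14 of the 41 with both signals were higher. Rplp0, of the ribosomal stalk, had 8355 in residual epithelium and 2154 in brain (3.88-fold), and Rps2 12364 in residual epithelium and 7535 in brain. Of 72 counted oxidative phosphorylation genes, 6 were higher in brain and 0 in residual epithelium, with a median of -0.25, and 71 of the 72 had both signals from the median. Cox8a, of cytochrome oxidase, was 2.84-fold higher in brain. Of 22 counted glycolysis and creatine kinase genes, 10 were higher in brain and 1 in residual epithelium, with a median of -0.59, and 9 of the 19 with both signals from the median were higher in brain. The brain forms led: Eno2, neuronal enolase, had 111 in residual epithelium and 5819.8 in brain (52.5-fold), and Ckb, brain creatine kinase, 1977 in residual epithelium and 12945 in brain (6.55-fold). Hk2, a hexokinase of growing cells, was 2.41-fold higher in residual epithelium. Of 46 counted proteasome and translation factor genes, each with both signals from the median, 6 were higher in residual epithelium and 1 in brain, with a median of 0.51. Eif4a1, a helicase of translation initiation, had 6860.0 in residual epithelium and 1720.4 in brain (3.99-fold). Eef1a2, the elongation factor of neurons and muscle, was 11.9-fold higher in brain, whereas Eef1a1, the general form, had 17740.5 in residual epithelium and 14384 in brain.

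Signalling genes of development showed no common direction. Of 50 counted Notch, Wnt, BMP and FGF genes, 10 were higher in residual epithelium and 11 in brain, with a median of -0.01, and of the 39 with both signals from the median 8 were higher in residual epithelium and 5 in brain. Mfng, a modifier of Notch receptors that B cells also express, was 8.66-fold higher in residual epithelium, and Fzd8 and Sfrp1, a receptor and an inhibitor of Wnt signalling, were 4.34-fold and 3.52-fold higher there. Notch1 had 642 in residual epithelium and 654 in brain. Fgf14 and Fgf13, intracellular partners of sodium channels, were at least 31.1-fold and 14.3-fold higher in brain.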

How the data were processed

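Expression array data of mouse residual olfactory epithelium and brain were analysed, with sorted OSNs used only for the floor, the filter and the choice of probe set, and set beside some values. The authors deposited, for each probe set, an intensity of 1 colour that is linear and not log-transformed. Per the submitters' processing notes MAS5 made 5 of the 6 arrays, the exception with no tool named being chip A of brain, its version is not stated, and per the labels RNA was extracted with TRI reagent. The background correction, the detection calls, a genome build and whether a single RNA extract served both chips: not given in the sources used here. Values were near a common trimmed mean on every array, which fixes each array's mean, so amounts per cell cannot be compared.

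The 64 control probe sets per chip were left out. Names came from the platform annotation updated to RefSeq GRCm38.p6 symbols: of 45137 probe sets, 35041 had a single symbol (34837 updated by identifier), 936 several and 9160 none, and no gene was named from the last 2 kinds. The floor was percentile 25 and the filter percentile 50 of the 3 arrays of a chip. Ratios were never taken across chips. Where a gene had several probe sets, its mean log2 signals were ranked as percentiles of their chips and the top-ranked probe set stood for it. A call is a log2 ratio of at least 2-fold, and the number of arrays limits the precision. The computation was tested on simulated data. The scripts ran under Python 3.11.15 with numpy (2.4.6) for arithmetic, pandas (2.3.3) for tables and matplotlib (3.10.9) for plots.

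Named genes are the 15 highest and 15 lowest ratios among genes that were counted and whose probe sets share 1 sign, the 3 highest and 3 lowest counted members of each list, the 2 highest and 2 lowest of each family, the defining genes of each list, Actb and Omp. Genes with probe sets of opposed sign, named in the closing section, were chosen after their values were seen, as were the promoter motifs and the printed windows. The comparison and the lists were chosen with earlier results of these data known. Some genes stand in more than 1 list. Alternatives tried were other floors and filters, a pseudocount, centring, quantile normalization, scaling on shared probe sets, the median over probe sets and each chip alone.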

Additional observations from a re-analysis of the deposited data

How the results depend on the processing

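Counts of calls kept within 1.5 times of the main count in 44 of 54 comparisons with alternatives. With the signal filter at percentile 75, calls fell to 1772 toward residual epithelium and 1723 toward brain on chip A, and to 1791 and 1764 on chip B, since fewer probe sets were counted. Scaled on the probe sets of both chips, chip B gave 1607 probe sets higher in residual epithelium and 4418 higher in brain. Genes of chip A only gave 1759 and 1627, and those of chip B only 1506 and 1320, because fewer genes were represented. The balance of calls for all genes was 2326 toward residual epithelium and 3119 toward brain under the shared scaling, against 2902 and 2446, and 2741 and 2566 when ratios were centred on their median.

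List medians moved by more than the SD between shared probe sets (0.34) in 221 of 975 cases and ratios of named genes in 772 of 4676. Neural splicing genes, at -0.37, went to -1.08 with the median over probe sets and -1.81 on chip B only, glycolysis genes from -0.59 to -1.12 with the median over probe sets, and xenobiotic genes, at 0.81, to -0.60 on chip B only. A turn of sign was scored only where the main median was at least 2-fold, which holds for just part of the 975 cases. It was found in 3: horizontal basal cells at -1.18 with the filter at percentile 75 and at -0.25 on chip B only, and erythroid genes at -0.36 on chip B only, each over fewer genes. Small medians of lists that were not called changed sign too, as given beside them for the shared scaling. Of named genes, Ablim1 went to a log2 ratio of 0.071 with the median over its probe sets and Krt14 to -0.61 with the floor at percentile 10. Signal over background limits low genes, whose folds are bounds in 437 of the calls toward residual epithelium and 378 toward brain. No paired analysis was possible because each population had 1 array per chip.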

Other observations

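Gene families outside the lists of the report were counted in the same way. Among all counted genes, 22.5% were higher in residual epithelium and 18.9% in brain. With both signals from the chip median the shares were 16.3% and 13.6%. Of 253 counted zinc finger genes with a Zfp symbol, 59 were higher in residual epithelium and 12 in brain, with a median log2 ratio of 0.43, and of the 199 with both signals from the chip median 34 were higher and 5 lower. The counts of Zfp genes toward residual epithelium were near the share of all genes, and those toward brain were below it. The median of the Zfp genes was 0.02 when scaled on the probe sets of both chips, so their direction as a family rests on the scale. Zfp217 had a signal of 1552 in residual epithelium and 43.1 in brain (at least 19.4-fold), and Zfp365 had 89.5 in residual epithelium and 4425 in brain (49.4-fold higher in brain). Of 226 counted solute carriers, 23 were higher in residual epithelium and 73 in brain, with a median of -0.29, and of the 165 with both signals from the median 14 and 41 were. Slc27a2, a fatty acid transporter, had 2718 in residual epithelium and 142 in brain (19.1-fold) and 3402 in sorted OSNs. Slc12a5, the chloride exporter of mature central neurons, had 176 in residual epithelium and 6752 in brain (38.3-fold higher in brain).

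Adhesion and guidance families had more members higher in brain than in residual epithelium. Of 13 counted cadherins 9 were higher in brain and 1 in residual epithelium, and of 14 protocadherins 6 and 1 were. Of 27 semaphorins and plexins the counts were 11 and 4, and of 16 Eph receptors and ephrins 9 and 3. With both signals from the median, 1 of 4 cadherins, 3 of 8 protocadherins, 8 of 22 semaphorins and plexins and 2 of 8 Eph receptors and ephrins were higher in brain, and 0, 1, 3 and 2 in residual epithelium. Cdh1 was the cadherin higher in residual epithelium, and Pcdh8 was the protocadherin, with 7883 in residual epithelium and 1535 in brain (5.13-fold) and 18916 in sorted OSNs. Efna3, an ephrin, had 1878 in residual epithelium and 784 in brain (2.39-fold) with 10455 in OSNs. Of 43 counted CD antigens, 26 were higher in residual epithelium and 2 in brain, the latter being Cd34 and Cd200 at 5.30-fold and 5.23-fold, and of the 20 with both signals from the median 7 and 1 were. Of 16 counted interleukin receptor genes, 10 were higher in residual epithelium and 2 in brain, but none of the 4 with both signals from the median reached 2-fold. Il17rd, a modulator of FGF signalling, had 1679 in residual epithelium and 97.5 in brain (17.2-fold) and 1325 in OSNs. Rgs13, a regulator known from mast cells and B cells, had 2004 in residual epithelium and 12.3 in brain (at least 25.1-fold) and 13.6 in OSNs.

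Probe sets of the same gene did not always run the same way. Of genes called higher in residual epithelium, 88.1% of their further counted probe sets shared its sign and 56.4% were also 2-fold apart, against 93.0% and 76.9% for genes called higher in brain and 74.2% and 37.9% over all counted genes. Of 5788 genes with at least 2 counted probe sets, 91 (1.57%) had probe sets called in opposed directions. Nrsn2, a neuronal membrane protein, had probe sets from -5.70 to 1.06, Epb41l4b from -4.62 to 1.87, Lrrfip1 from -1.85 to 4.06, Ptprd from -4.11 to 1.42 and Zwint from -3.38 to 2.0. Which transcript forms these probe sets read was not tested. Among counted probe sets with no name or several, 297 of 1079 on chip A and 635 of 3878 on chip B were higher in residual epithelium, and 175 and 678 in brain.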
